A study of Mus musculus with 6 samples.

Results

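Venules recruit leukocytes through a small set of surface and secreted proteins, and 9 genes of this kind were followed here in RNA of sorted mouse mammary cells: Selp, Sele, Vcam1, Icam1, Ackr1, Enpp2, Ubd, Nr2f2 and Vwf. They were taken by symbol from the 51826 gene symbols of the deposited count files, with all 9 found and 9 passing the filter on low counts. The genes were chosen with earlier results of the same contrast in view, so that their differences between GFP-positive and GFP-negative cells are given as a description. Counts of calls among them are printed beside the share of all genes called and are not evidence for the set. The sources name the study's subject as the change of mammary cell fate after Notch activation.

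GFPpos and GFPneg cells came from the same mice and shared every other label. All mice were C57B6/N and carried the genotype SMAcreERT2/N1ICD, which joins a Cre that tamoxifen switches on and that a smooth muscle actin promoter drives with an allele of the Notch1 intracellular domain. Tamoxifen was given in 1 dose at postnatal day 21, with cells taken after 72 hours, at day 24. Each of the 3 replicates was a pool of 2 to 3 animals from which both fractions were sorted, so p-values measure the spread between pools. No library of labelled cells without the N1ICD allele was analysed here, and the sources used here do not say which allele carries GFP. The smooth muscle actin promoter is active in mammary basal cells and also in vascular smooth muscle, as background.

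Leukocytes leave the blood mostly through postcapillary venules. P-selectin and E-selectin on the venule wall let them roll, chemokines activate their integrins, and ICAM-1 and VCAM-1 hold the activated integrins in firm adhesion. In lymphoid organs the specialised high endothelial venules add autotaxin, the product of Enpp2, which makes lysophosphatidic acid at the vessel wall, and the atypical chemokine receptor ACKR1 marks venules in many tissues. Inflammatory cytokines raise several of these genes through NF-kappaB.

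Sequence from before the transcription start is shown for the neighbouring selectin genes and for Ubd, which had the widest spread between libraries of the 9 genes. Selp (chromosome 1, 164115264 to 164150026, plus strand) lies 57586 bases downstream of Sele (chromosome 1, 164048234 to 164057677, plus strand) in GENCODE M21 on mm10. The stretches are the 250 bases upstream of the RefSeq start on GRCm38.p6, the same assembly, at chr1:164115014-164115263 for Selp, chr1:164047984-164048233 for Sele and chr17:37193642-37193891 for Ubd, all on the plus strand. Capitals mark matches to 4 motifs searched on both strands, namely the NF-kappaB consensus, the AP-1 motif TGANTCA, the RBPJ core TGGGAA and the TATA motif TATAAA.
Selp: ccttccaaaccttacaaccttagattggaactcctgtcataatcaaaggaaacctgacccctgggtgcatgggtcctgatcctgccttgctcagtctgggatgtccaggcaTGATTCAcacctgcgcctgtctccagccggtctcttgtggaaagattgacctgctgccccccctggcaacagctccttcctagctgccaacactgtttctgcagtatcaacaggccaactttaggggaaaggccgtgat
Sele: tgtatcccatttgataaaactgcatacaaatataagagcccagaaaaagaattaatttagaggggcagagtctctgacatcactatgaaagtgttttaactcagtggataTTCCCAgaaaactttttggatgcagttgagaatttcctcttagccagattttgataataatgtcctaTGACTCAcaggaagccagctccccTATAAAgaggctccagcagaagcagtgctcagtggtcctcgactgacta
Ubd: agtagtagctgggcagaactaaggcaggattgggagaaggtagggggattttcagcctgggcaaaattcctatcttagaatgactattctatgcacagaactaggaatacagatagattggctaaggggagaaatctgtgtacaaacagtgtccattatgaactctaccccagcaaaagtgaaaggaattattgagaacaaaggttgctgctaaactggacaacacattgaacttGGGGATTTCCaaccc

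The Ubd stretch held the NF-kappaB consensus 15 bases before the start, a motif present in 3.90% of the 32851 upstream stretches of the same length. Each selectin stretch held 1 AP-1 match, 139 bases before the start in Selp and 73 bases in Sele, against 6.75% of all stretches. The RBPJ core stood 140 bases before the start of Sele, against 21.6% of all stretches, and the TATA motif 49 bases before it, against 12.4%. No marked matches overlapped. RefSeq stretches were matched for 6 of the 9 genes, and not for Vcam1, Enpp2 and Vwf. In the matched stretches not printed here, the only match was an RBPJ core in Ackr1, 211 bases before its start. The NF-kappaB consensus was searched as GGGRNWYYCC, and only full matches to each pattern were marked. A stretch without a mark may therefore still hold a variant site. These matches describe letters in the window, and binding was not measured.

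The libraries were unequal in depth. GFPneg replicate 1 held 611465 gene counts, of which 69.2% lay in 5 abundant noncoding features, and the other 5 libraries held 9912610 to 16043492, with 22.7% to 34.7% in those features. A single count in GFPneg replicate 1 equalled 3.28 CPM, a gene's count relative to the TMM-corrected library size of its library, against 0.0513 to 0.0911 CPM elsewhere. Its TMM factor was 0.501, against 1.05 to 1.22 in the other libraries, which raises its CPM relative to library size alone, so the fold changes are given with and without it. Libraries were labelled as basal cells, and all 12 basal markers were detected in each of them, with summed levels of 7471 to 8641 CPM in GFPpos and 9187 to 14873 CPM in GFPneg libraries. Of these markers 11 had negative fold changes (median log2 -0.70), and of 15 luminal markers 11 had positive ones (median log2 0.77). Over all 13873 genes tested, 7977 fold changes were positive and 5896 negative. With the 6 libraries 0 of either list were called by edgeR. Kit, of the luminal list, was called higher with the replicate block (edgeR adjusted p = 0.00358). With GFPneg replicate 1 left out Kit was called higher (edgeR adjusted p = 0.00523) and Cnn1, of the basal list, lower (adjusted p = 0.0158). All 20 pan-endothelial markers were detected as well in the 5 deep libraries, and 18 in GFPneg replicate 1.

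Selp, which encodes the P-selectin that venule cells and platelets hold ready for release, was at 100.5, 183 and 313 CPM in GFPpos replicates 1, 2 and 3, against 72.1, 21.5 and 12.6 CPM in GFPneg replicates 1, 2 and 3. The groups did not overlap, and GFPpos cells were higher in every pair, by 1.39-fold in pair 1, 8.51-fold in pair 2 and 24.9-fold in pair 3. Its log2 fold change was 2.69 (SE 0.65), and 3.55 (SE 0.49) without GFPneg replicate 1. The GFPneg replicate 1 value rests on 22 counts, with a 95% exact Poisson interval of 45.2 to 109 CPM that covers counting error only. That interval includes the GFPpos replicate 1 value.

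Sele encodes E-selectin, which is made after cytokine stimulation. It stood at 38.7, 70.7 and 118 CPM in GFPpos replicates 1 to 3 and at 105, 14.4 and 9.20 CPM in GFPneg replicates 1 to 3. The groups overlapped through GFPneg replicate 1, which lay above 2 of the 3 GFPpos libraries with 32 counts (interval 71.8 to 148 CPM). GFPpos cells were 4.90-fold and 12.8-fold higher in pairs 2 and 3, and the ratio in pair 1 was 0.369. On the log2 scale the fold change was 1.03 (SE 0.80) with all libraries and 2.69 (SE 0.49) without GFPneg replicate 1.

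Vcam1 (chromosome 3, 116109949 to 116129688, minus strand), the endothelial ligand of the leukocyte integrin alpha4 beta1, had 111, 106 and 154 CPM in GFPpos replicates 1 to 3, against 105, 31.9 and 46.5 CPM in GFPneg replicates 1 to 3. The lowest GFPpos library (106.4 CPM) and GFPneg replicate 1 (104.9 CPM) differed by less than what 1 count is worth in GFPneg replicate 1, so the groups did not overlap only by that margin. The ratio was 1.06 in pair 1. In pairs 2 and 3 GFPpos cells were 3.33-fold and 3.31-fold higher. The log2 fold change was 1.09 (SE 0.51), and 1.68 (SE 0.32) without GFPneg replicate 1.

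Icam1 (chromosome 9, 21015985 to 21028817, plus strand), the ligand of beta2 integrins such as LFA-1, differed little. It had 629, 478 and 749.8 CPM in GFPpos replicates 1 to 3 and 882, 397 and 697 CPM in GFPneg replicates 1 to 3. The groups overlapped over their whole range, with ratios of 0.713, 1.20 and 1.08 in pairs 1, 2 and 3. The log2 fold change was -0.09 (SE 0.40) and turned to 0.20 (SE 0.31) without GFPneg replicate 1, and to 0.32 with library size only.

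Ubd (chromosome 17, 37193892 to 37196095, plus strand) encodes FAT10, a ubiquitin-like protein whose gene responds to TNF and interferon gamma. It had 306, 244 and 441 CPM in GFPpos replicates 1 to 3, against 302, 1.44 and 6.10 CPM in GFPneg replicates 1 to 3. GFPneg replicate 1 thus lay within the GFPpos range, with 92 counts, while the deep GFPneg libraries held 28 and 67 counts. GFPpos cells were 169.6-fold and 72.2-fold higher in pairs 2 and 3, and the ratio in pair 1 was 1.02. Accordingly the log2 fold change was 1.84 (SE 1.17) with all libraries and 6.53 (SE 0.62) without GFPneg replicate 1, the widest change of value among the 9 genes.

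Enpp2 (chromosome 15, 54838901 to 54952892, minus strand), the gene of the lysophosphatidic acid-producing enzyme autotaxin, had 321, 337 and 766 CPM in GFPpos replicates 1 to 3, against 184, 11.6 and 25.1 CPM in GFPneg replicates 1 to 3. All GFPpos libraries lay above all GFPneg libraries. The ratios were 1.75, 29.1 and 30.6 in pairs 1, 2 and 3, and the log2 fold change was 2.86 (SE 0.80), or 4.72 (SE 0.52) without GFPneg replicate 1. Fibroblasts and adipocytes are also known to express Enpp2. The summed level of 12 fibroblast markers was lower in GFPpos libraries, at 346 to 443 CPM, than in GFPneg libraries, at 777 to 1705 CPM, and its part in the result was not tested.

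Ackr1 (chromosome 1, 173331886 to 173333750, minus strand), whose product binds chemokines on venules without signalling as other chemokine receptors do, was the least abundant of the 9 genes before length was taken into account. It had 9.79, 21.5 and 42.4 CPM in GFPpos replicates 1 to 3, against 13.1, 1.39 and 3.10 CPM in GFPneg replicates 1 to 3. GFPneg replicate 1, with 4 counts (interval 3.57 to 33.6 CPM), lay above GFPpos replicate 1. In pairs 2 and 3 GFPpos cells were 15.5-fold and 13.7-fold higher. On the log2 scale the fold change was 2.65 (SE 1.05), and 3.49 (SE 0.77) without GFPneg replicate 1. Ackr1 overlaps Cadm3 on the same strand in GENCODE M21, and Cadm3 held 68 counts in all 6 libraries together.

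Nr2f2 (chromosome 7, 70351944 to 70366735, minus strand) encodes COUP-TFII, a transcription factor that maintains venous identity and is also found in lymphatic endothelium and stroma. Its level was 32.3, 44.7 and 102 CPM in GFPpos replicates 1 to 3, against 334, 23.0 and 11.8 CPM in GFPneg replicates 1 to 3. GFPneg replicate 1 was the highest of the 6 libraries, and the ratios were 0.0967, 1.94 and 8.66 in pairs 1, 2 and 3. As a log2 fold change this was -0.94 (SE 0.91) and turned to 1.78 (SE 0.52) without GFPneg replicate 1, to 0.50 with the replicate number as a block and to 0.044 with library size only.

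Vwf (chromosome 6, 125546774 to 125686679, plus strand), the gene of the clotting protein von Willebrand factor that endothelial cells store with P-selectin in Weibel-Palade bodies, had 123, 114 and 273 CPM in GFPpos replicates 1 to 3. In GFPneg replicates 1 to 3 it had 643, 128 and 18.1 CPM, a range that spanned the whole GFPpos range. The ratios were 0.191, 0.892 and 15.0 in pairs 1, 2 and 3. The log2 fold change was -0.59 (SE 0.80) and turned to 1.22 (SE 0.64) without GFPneg replicate 1, to 0.23 with the replicate block and to 0.26 with library size only. In bulk RNA, fewer cells of a type and less RNA per cell cannot be told apart, for these genes as for all others.

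**Figure D1:**
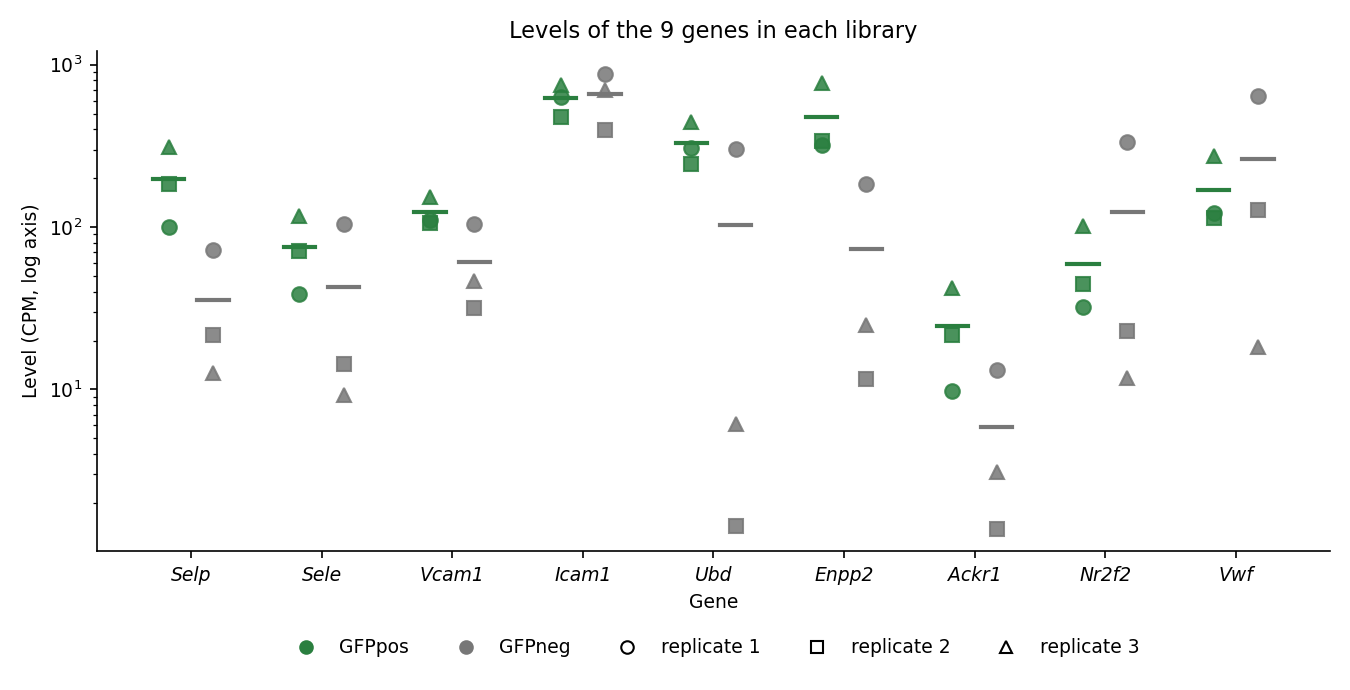
Level of each gene in CPM on a log axis in the 3 GFPpos (green) and 3 GFPneg (grey) libraries, with the replicate given by the symbol and the group mean by the bar. For Ubd the GFPneg libraries reach from 1.44 to 302 CPM while the GFPpos libraries lie between 244 and 441 CPM, and for Icam1 the groups share their range.

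The 9 genes thus differed in whether the groups overlapped. Selp, Vcam1 and Enpp2 had all GFPpos libraries above all GFPneg libraries, 3 of 9 genes, against 9.53% of the 13873 genes tested. For Selp and Vcam1 this separation lay within counting error of GFPneg replicate 1. Its 95% exact intervals of 45.2 to 109 CPM for Selp and 71.8 to 148 CPM for Vcam1 include the lowest GFPpos values. Scaled by library size alone, 5 genes did not overlap, with Ackr1 and Ubd added, against 9.44% of all genes. Ackr1 then had 6.54 CPM in GFPneg replicate 1, from only 4 counts, against 10.2 CPM in GFPpos replicate 1. In pair 1, 4 of the 9 genes were higher in GFPpos cells (6 by library size alone), against 71.4% of all genes. In pair 2 there were 8, all but Vwf, against 47.7% of all genes, and in pair 3 there were 9, against 51.7%. The median log2 ratio of CPM + 1 over the 9 genes was -0.39, 2.22 and 3.54 in pairs 1, 2 and 3, beside 1.34, -0.03 and 0.05 over all genes tested. Since the genes were chosen on this contrast, nothing further is read from these counts.

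**Figure D2:**
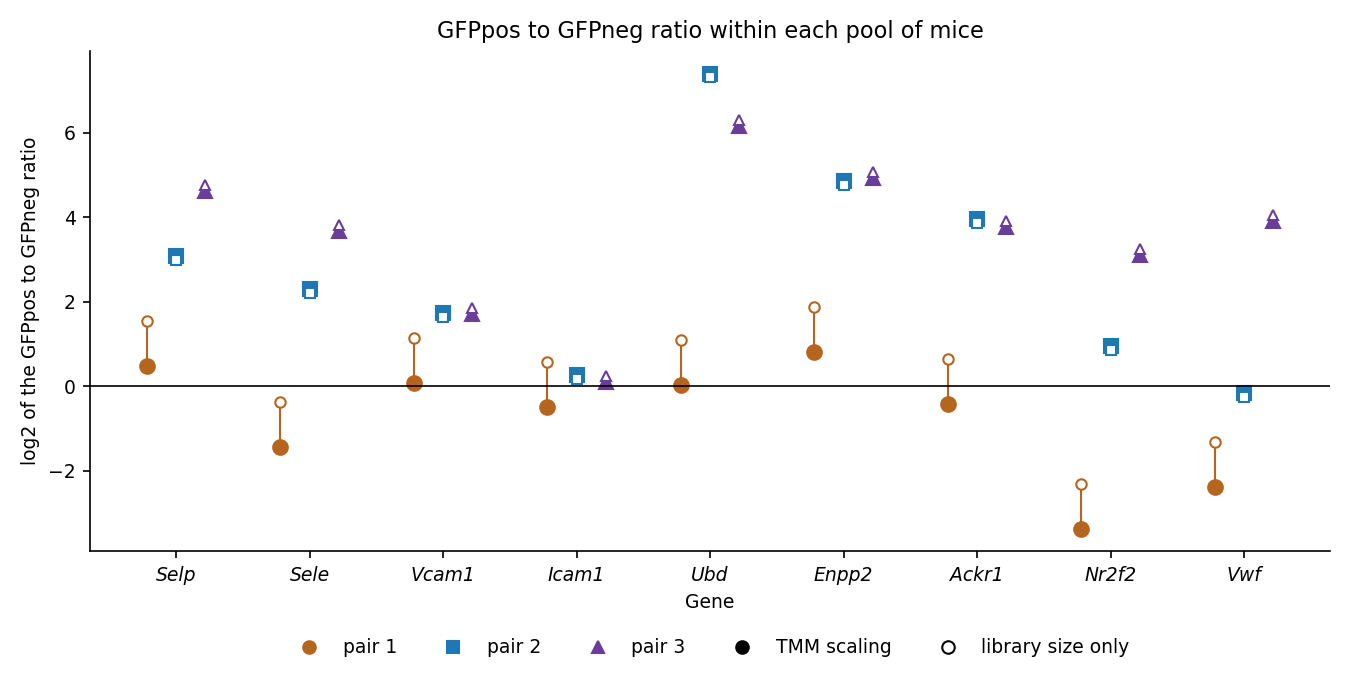
The log2 ratio of GFPpos to GFPneg level of each gene within pairs 1, 2 and 3, with TMM scaling (filled) and with library size only (open), the 0 line marking equal levels. Pairs 2 and 3 lie above or close to 0 for each gene, while pair 1 spans ratios from 0.0967 for Nr2f2 to 1.75 for Enpp2 with TMM scaling.

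In edgeR's quasi-likelihood test over all 13873 genes, 0 of the 9 genes were called higher at an adjusted p below 0.05 with the 6 libraries, against 0.0577% of all genes. At an unadjusted p below 0.05, 4 were higher (Selp, Vcam1, Ackr1 and Enpp2), against 2.38% of all genes. With the replicate number as a block, 3 were called higher (Selp, Enpp2 and Ubd), against 0.31% of all genes. DESeq2 called 1 (Selp), against 0.36%, and with the block 2 (Enpp2 and Ubd), against 0.543%. Without GFPneg replicate 1 edgeR called 5 (Selp, Sele, Vcam1, Enpp2 and Ubd), against 0.412%. With the block on pairs 2 and 3 alone, a fit with few residual degrees of freedom, 8 were called (all but Icam1), against 2.52%. Without a filter on low counts edgeR called 3 (Selp, Enpp2 and Ubd), against 0.263%, and with library size only 0, against 0.036%. With the 6 libraries 0 of the 9 genes were called lower, against 0.00721% of all genes. These counts come from the contrast on which the genes were chosen and support nothing by themselves.

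Within each group the 9 genes had their highest level in the same pool. In GFPpos cells replicate 3 was the highest library for 9 of 9 genes, against 36% of all genes tested, and in GFPneg cells replicate 1 was the highest for 9 of 9, against 20.6%, or for 8 of 9 by library size alone. Pan-endothelial markers had the same high libraries. Of 20 markers, 19 were highest in replicate 3 among GFPpos and 14 in replicate 1 among GFPneg libraries. Their summed level was 1872, 1691 and 4767 CPM in GFPpos replicates 1 to 3 and 3577, 2041 and 1441 CPM in GFPneg replicates 1 to 3. Over the groups these markers overlapped, with 1 of 20 (Cd34) higher in all GFPpos libraries than in all GFPneg libraries. The part of endothelial cell content in the differences between groups was not tested by these sums.

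The 9 genes were also set against the endothelial RNA of the same library, with denominators chosen after the values were seen. Per 1000 counts of the 20 pan-endothelial markers in the same library, Selp had 53.7, 108 and 65.6 counts in GFPpos replicates 1 to 3, against 20.2, 10.5 and 8.72 in GFPneg replicates 1 to 3. Enpp2 had 172, 199 and 161 in GFPpos against 51.3, 5.68 and 17.4 in GFPneg libraries, and Ubd 164, 144 and 92.4 in GFPpos against 84.3, 0.704 and 4.23 in GFPneg libraries. Ackr1 had 5.23, 12.7 and 8.90 in GFPpos against 3.67, 0.679 and 2.15 in GFPneg libraries. On this measure, which needs no scaling between libraries, these 4 of the 9 genes did not overlap between the groups, against 2.62% of all genes tested. For Ubd and Ackr1 this separation lay within counting error of GFPneg replicate 1, whose 95% exact intervals of 67.4 to 104 for Ubd and 0.997 to 9.41 for Ackr1 include the lowest GFPpos values. Vcam1, with 59.2, 62.9 and 32.2 in GFPpos against 29.3, 15.6 and 32.2 in GFPneg libraries, overlapped by a narrow margin. Sele, Icam1, Nr2f2 and Vwf overlapped too, and Vwf was nearly level in GFPpos libraries (65.5, 67.6 and 57.2) while GFPneg libraries reached from 12.6 to 179.7. Per count of Pecam1 and Cdh5 alone, 3 genes did not overlap (Selp, Ackr1 and Enpp2), against 1.16% of all genes. There Ackr1 had 13.6 per 1000 counts in GFPneg replicate 1, from only 4 counts, against 15.6 in GFPpos replicate 1.

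**Figure D3:**
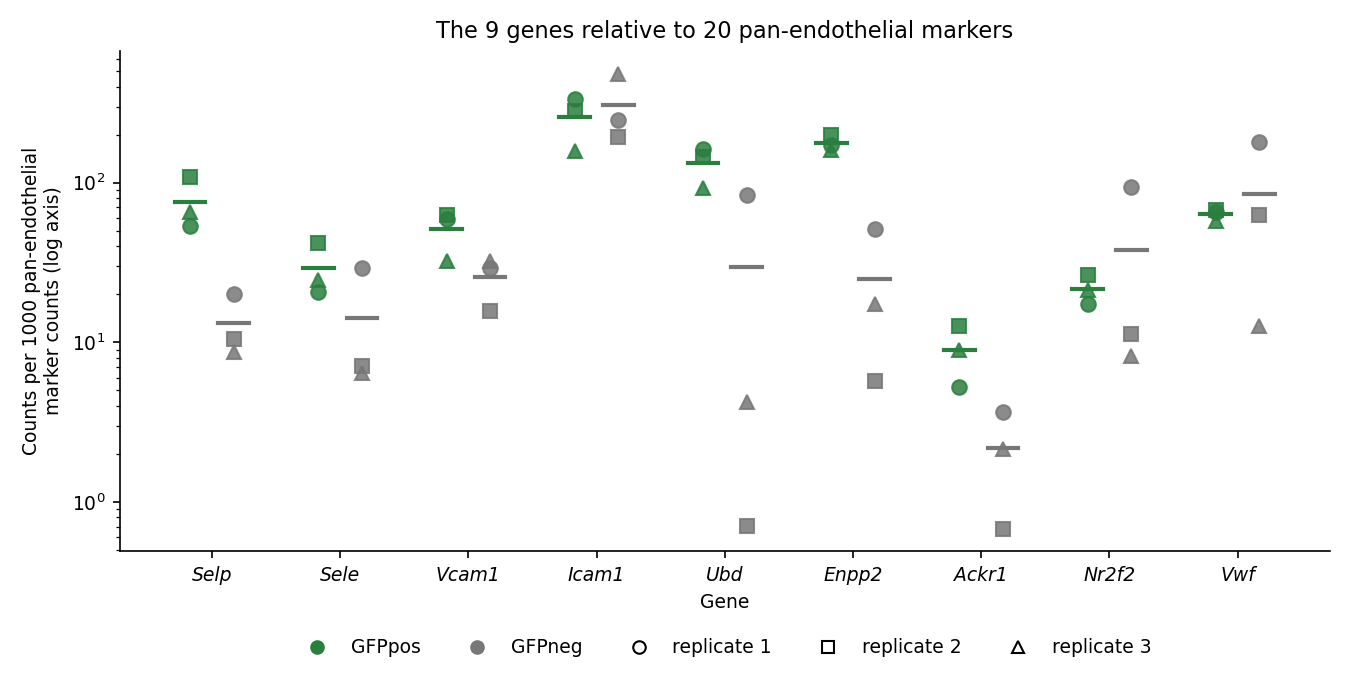
Counts of each gene per 1000 counts of 20 pan-endothelial markers in the same library, on a log axis, for GFPpos (green) and GFPneg (grey) libraries, with bars at the group means. Selp, Ubd, Enpp2 and Ackr1 have all GFPpos points above all GFPneg points, for Ubd and Ackr1 within counting error of GFPneg replicate 1, and Vwf lies between 57.2 and 67.6 in GFPpos against 12.6 to 179.7 in GFPneg libraries.

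The proportions between the genes also differed by group, a comparison chosen after the values were seen and likewise free of scaling between libraries. The selectins kept a nearly fixed proportion in GFPpos cells. Sele had 0.385, 0.386 and 0.376 counts per Selp count in GFPpos replicates 1 to 3, against 1.45, 0.671 and 0.732 in GFPneg replicates 1 to 3. The 95% exact intervals of the 3 GFPpos ratios overlapped one another, and none reached the GFPneg values. Nr2f2 had 0.322, 0.244 and 0.325 counts per Selp count in GFPpos libraries, against 4.64, 1.07 and 0.935 in GFPneg libraries, and Vwf 1.22, 0.625 and 0.872 in GFPpos against 8.91, 5.96 and 1.44 in GFPneg libraries. Of the 8 other genes, 5 were lower per Selp count in all GFPpos libraries (Sele, Vcam1, Icam1, Nr2f2 and Vwf), against 27.4% of all genes. For Vcam1 and Vwf this separation lay within counting error. The interval of Vcam1 in GFPneg replicate 1, 0.819 to 2.63, includes its GFPpos replicate 1 ratio of 1.10. The interval of Vwf in GFPneg replicate 3, 1.15 to 1.80, includes its GFPpos replicate 1 ratio of 1.22. The ratios of Ackr1, Enpp2 and Ubd to Selp overlapped, and 0 genes were higher per Selp count, against 0.223%.

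Icam1 differed least between the groups, and per Icam1 count the genes that separated lay higher in GFPpos libraries. The direction of such ratios depends on the gene chosen as denominator. Vcam1 had 0.176, 0.223 and 0.205 counts per Icam1 count in GFPpos replicates 1 to 3, against 0.119, 0.0804 and 0.0667 in GFPneg replicates 1 to 3. Ubd had 0.487, 0.510 and 0.588 in GFPpos libraries, against 0.342, 0.00362 and 0.00876 in GFPneg libraries. Selp, Vcam1, Ackr1, Enpp2 and Ubd, 5 of 8 genes, were higher per Icam1 count in all GFPpos libraries, against 3.19% of all genes, and Sele, Nr2f2 and Vwf overlapped. None of the 8 was lower in all GFPpos libraries, against 3.53%. In GFPneg replicate 1 the Ackr1 ratio rests on 4 counts, and its interval of 0.00402 to 0.0385 includes the GFPpos replicate 1 ratio of 0.0156.

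**Figure D4:**
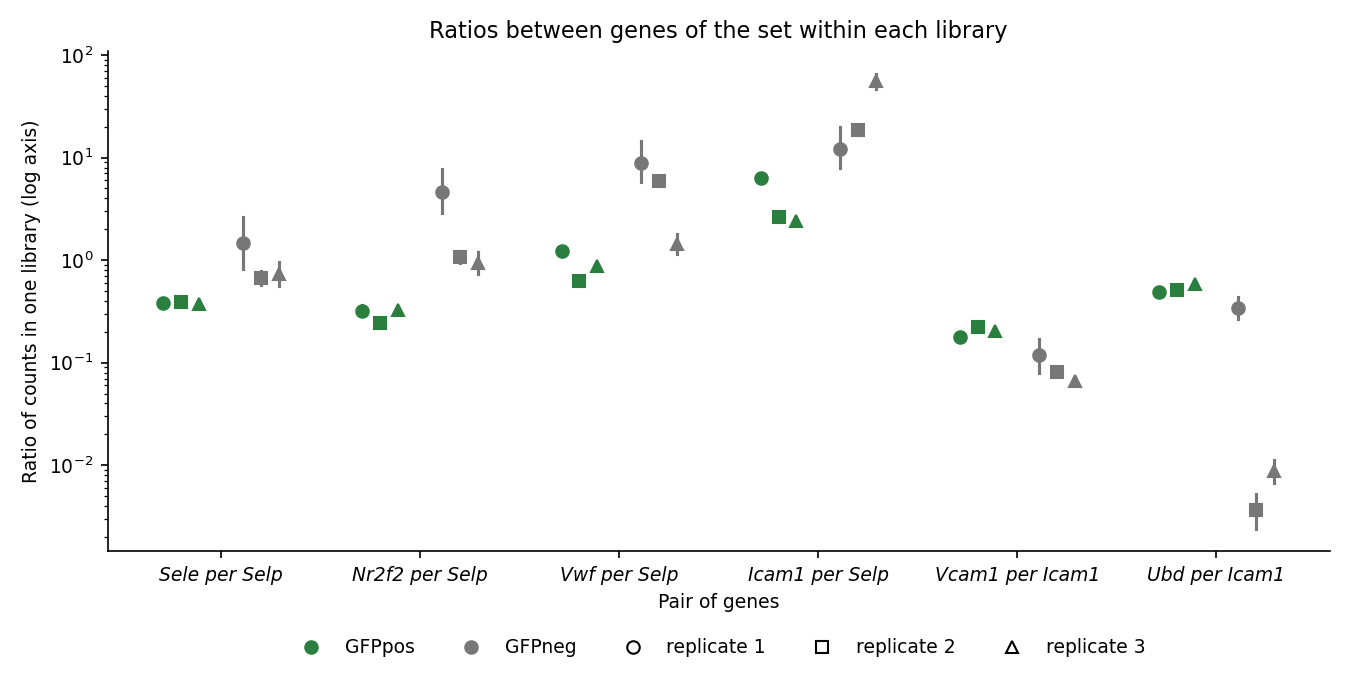
Ratio of the counts of 2 genes within 1 library on a log axis, with 95% exact binomial intervals for counting error, for GFPpos (green) and GFPneg (grey) libraries. Sele per Selp lies between 0.376 and 0.386 in the 3 GFPpos libraries, and between 0.671 and 1.45 in the GFPneg libraries.

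Levels of different genes were compared per kilobase of exon. In GFPpos cells Ubd stood highest, at 355 ± 108 CPM per kb (SD, n = 3), above Icam1 at 142 ± 31.3 and without overlap between them. Enpp2 (82.1 ± 43.6 CPM per kb), Selp (45.0 ± 24.2), Sele (26.0 ± 13.6), Ackr1 (17.5 ± 11.8), Vcam1 (13.9 ± 2.94), Vwf (10.6 ± 5.54) and Nr2f2 (6.91 ± 4.29) followed, and each neighbour in this order overlapped the next in its range. In GFPneg cells Icam1 had the highest mean at 151 ± 56.1 CPM per kb (SD, n = 3) and Ubd followed at 111 ± 185, with a range of 1.54 to 324. All neighbours overlapped there. In share of the 9 genes' summed CPM, Icam1 made up 37.6%, 29.9% and 25.4% in GFPpos replicates 1 to 3, against 33.4%, 63.0% and 84.0% in GFPneg replicates 1 to 3.

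The genes nearest in profile to each of the 9 were found among 9586 genes by the root mean square difference of log2 (CPM + 1) over the 6 libraries, after each gene was centred on its mean. All of these profiles share the same libraries and the low depth of GFPneg replicate 1. For Selp they were Sspo (0.36) and Nxpe2 (0.42), and for Sele Sult1a1 (0.16) and Exoc3l4 (0.33). Vcam1 lay nearest to Plxna4 (0.23) and Arhgef7 (0.25), and Icam1 to Mical3 (0.10) and Fubp1 (0.13). Ackr1 lay nearest to Tnip1 (0.32), the gene of an NF-kappaB feedback inhibitor, and Papss2 (0.39), and Enpp2 to Susd2 (0.27) and Fut7 (0.31), the fucosyltransferase gene of selectin ligands. Ubd had no near neighbour, with Glycam1 (0.89) and Lrg1 (0.97) closest. For Nr2f2 they were Calcrl (0.35) and Hcls1 (0.41), and for Vwf Lhx6 (0.30) and a gene with a clone name (0.33). Among the 9 genes themselves Selp and Ackr1 were the closest pair, at 0.54.

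Other genes of the same pathways were read from the test over all genes. The 7 pathway lists held 110 genes, of which 100 were tested. With the 6 libraries edgeR called 0 of them in either direction, against 0.0649% of all genes. At an unadjusted p below 0.05 edgeR had 13 higher and 10 lower, against 2.38% and 2.88% of all genes. DESeq2 called 1 higher and 2 lower, against 1.08% of all genes in either direction. With the replicate block 3 were higher (Tnfaip3, Tnip1 and Lrg1) and 2 lower (Nrp1 and Sema3g), against 0.44% of all genes in either direction. Without GFPneg replicate 1, when 104 were tested, 5 were higher (Tnfaip3, Tnip1, Cxcl1, Traf1 and Lrg1) and 3 lower (Podxl, Sema3g and Notch4), against 0.602%.

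Response genes of TNF, interleukin-1 and NF-kappaB had 17 of 24 positive fold changes (median log2 0.24). Over all genes tested 7977 of 13873 were positive, with a median of 0.15. Tnfaip3, the gene of the NF-kappaB inhibitor A20, averaged 410 ± 145 CPM in GFPpos cells, against 113 ± 29.4 CPM in GFPneg cells (SD, n = 3 each). It did not pass edgeR's threshold with the 6 libraries (adjusted p = 0.202), but rose in the blocked fit (adjusted p = 0.0384) and in the fit that left out GFPneg replicate 1 (adjusted p = 0.0166). Tnip1 averaged 361 ± 182 CPM in GFPpos cells, against 81.5 ± 58.2 CPM in GFPneg cells, with edgeR's adjusted p at 0.315, 0.00462 with the block and 0.00760 without GFPneg replicate 1. The chemokine gene Cxcl1 stood at 282 ± 23.0 CPM in GFPpos cells, against 86.9 ± 36.6 CPM in GFPneg cells, with edgeR's adjusted p at 0.350, and at 0.0424 without GFPneg replicate 1. The receptor gene Il1r1 stood at 66.0 ± 51.8 CPM in GFPpos cells, against 17.9 ± 12.9 CPM in GFPneg cells and did not pass in any of these 3 fits.

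Adhesion and transmigration genes of endothelium had 14 of 18 positive fold changes (median log2 0.44), and 0 were called by edgeR with the 6 libraries. Jam3, a junctional adhesion molecule gene, averaged 27.0 ± 19.6 CPM in GFPpos cells, against 3.39 ± 4.33 CPM in GFPneg cells. Podxl, which encodes the sialomucin podocalyxin, went the other way, with 19.8 ± 10.8 CPM in GFPpos cells, against 116 ± 104 CPM in GFPneg cells, and fell without GFPneg replicate 1 (edgeR adjusted p = 0.0122). Of 12 counter-receptor genes of leukocytes, 6 were tested and 0 called. Itgax was at 0 in all libraries, and Selplg, the gene of the selectin ligand PSGL-1, had 0, 62 and 48 counts in GFPpos and 3, 0 and 0 counts in GFPneg replicates 1 to 3.

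Of the genes of the Weibel-Palade body and of haemostasis, 9 of 15 had positive fold changes (median log2 0.35), beside 7977 of 13873 genes tested. In this list 0 were called by edgeR with the 6 libraries, with the block or without GFPneg replicate 1. Angpt2, which encodes a factor stored in that body beside von Willebrand factor, averaged 95.3 ± 71.2 CPM in GFPpos cells, against 22.3 ± 16.5 CPM in GFPneg cells. Venous identity genes were divided, with 6 of 11 positive (median log2 0.56). With the 6 libraries edgeR called 0 of them. At an unadjusted p below 0.05 it had 0 higher and 3 lower, against 2.38% and 2.88% of all genes. These 3 were Aplnr, the apelin receptor gene, at 0.259 ± 0.324 CPM in GFPpos cells, against 5.41 ± 2.87 CPM in GFPneg cells, Vegfc, a lymphangiogenic growth factor gene, at 1.10 ± 0.978 CPM in GFPpos cells, against 11.7 ± 11.3 CPM in GFPneg cells, and its receptor gene Flt4, at 8.20 ± 7.93 CPM in GFPpos cells, against 45.4 ± 54.4 CPM in GFPneg cells. Flt4 had 108, 14.4 and 13.7 CPM in GFPneg replicates 1 to 3. Its log2 fold change was -2.35 with the 6 libraries and -0.76 without GFPneg replicate 1 (edgeR adjusted p = 0.936). Lrg1 averaged 332 ± 158 CPM in GFPpos cells, against 107 ± 160 CPM in GFPneg cells, with 292, 11.96 and 16.6 CPM in GFPneg replicates 1 to 3. Lrg1 did not pass with the 6 libraries (edgeR adjusted p = 1.00), but rose in the blocked fit (adjusted p = 0.000191) and in the fit that left out GFPneg replicate 1 (adjusted p = 0.00116). As for Ubd, GFPneg replicate 1 lay within the GFPpos range.

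Arterial and Notch-side endothelial genes had 8 of 14 negative fold changes (median log2 -0.84). The semaphorin receptor gene Nrp1 averaged 19.0 ± 9.86 CPM in GFPpos cells, against 230 ± 243 CPM in GFPneg cells, and Sema3g, the gene of a secreted semaphorin, 1.65 ± 1.53 CPM in GFPpos cells, against 40.3 ± 35.4 CPM in GFPneg cells. Neither passed edgeR's threshold with the 6 libraries (adjusted p = 0.108 and 0.332). Both fell with the block (adjusted p = 0.000662 for Nrp1 and 0.00735 for Sema3g). Without GFPneg replicate 1 Nrp1 did not pass (edgeR adjusted p = 0.0535, log2 fold change -2.23 against -3.55 with the 6 libraries) and Sema3g did (adjusted p = 0.0343). Notch1, of the same list, had all GFPpos libraries above all GFPneg libraries. It averaged 463 ± 41.7 CPM in GFPpos cells, against 183 ± 81.4 CPM in GFPneg cells. In none of these 3 fits did it pass (edgeR adjusted p = 0.625 with the 6 libraries). All mice carried the N1ICD allele, and counts per gene symbol do not tell its transcripts apart from those of the endogenous Notch1 gene. The list of lysophosphatidic acid receptors, phosphatases and other genes of the Enpp family had 5 of 12 positive fold changes (median log2 -0.11). From it 0 were called by edgeR with the 6 libraries, with the block or without GFPneg replicate 1. Among them the phosphatase gene Plpp3 averaged 91.8 ± 22.5 CPM in GFPpos cells, against 150 ± 71.8 CPM in GFPneg cells.

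Among genes of the high endothelial venule edgeR made calls with all libraries. Of 12 mucin, enzyme and chemokine genes, 3 were higher, against 0.0577% of all genes. The edgeR adjusted p was 0.00637 for Ccl21a, 0.0122 for Chst4 and 0.0445 for Madcam1. In GFPneg replicates 1 to 3 Chst4 had 1, 10 and 0 counts and Madcam1 0, 1 and 0 counts. Both therefore passed the filter on low counts through the GFPpos libraries in which they were high. The list was chosen with earlier results of these data known, so these calls are a description. Over the list 8 fold changes were positive and 4 negative, with a median log2 of 2.31. The negative ones were those of Podxl (log2 -2.60), Fut4 (-0.46), Chst2 (-0.06) and Parm1 (-0.03). Ccl21a is also 1 of the lymphatic endothelial markers. Fut7, which was near Enpp2 in profile, averaged 52.0 ± 28.4 CPM in GFPpos cells, against 4.83 ± 7.17 CPM in GFPneg cells (edgeR adjusted p = 0.287). It passed in the blocked edgeR fit (adjusted p = 0.00663) and without GFPneg replicate 1 at an adjusted p of 0.00172.

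Markers of other cells that express some of the 9 genes were compared by group. Platelets carry P-selectin and von Willebrand factor, and 12 platelet and megakaryocyte markers summed to 35.4 to 45.1 CPM in GFPpos and 26.2 to 45.0 CPM in GFPneg libraries. Itgb3, which many cells express, had the highest mean of them in both groups. Ppbp, Gp9, Gp6 and Treml1 were at 0 in all 6 libraries. Pf4, the platelet factor 4 gene, had 3.44, 8.71 and 8.20 CPM in GFPpos replicates 1 to 3, against 0, 0.154 and 3.74 CPM in GFPneg replicates 1 to 3, and Gp1ba was seen in GFPpos replicate 2 alone, at 1.17 CPM. The 16 leukocyte markers summed to 9.15 to 62.5 CPM in GFPpos and 3.59 to 52.5 CPM in GFPneg libraries, with Csf1r, Adgre1 and Cd3g at 0 in all libraries and Ptprc at 6, 32 and 83 counts in GFPpos and 0 in each GFPneg library. Cd74 was the most abundant of them, at 8.61, 19.2 and 44.7 CPM in GFPpos and 36.1, 1.75 and 3.74 CPM in GFPneg replicates 1 to 3. Like the 9 genes, its highest libraries were GFPpos replicate 3 and GFPneg replicate 1.

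Lymphatic endothelium expresses Nr2f2, and its 7 markers summed to 415 to 548 CPM in GFPpos and 218 to 429.5 CPM in GFPneg libraries. The higher GFPpos sum came from Ccl21a, the 1 marker called. Without it the other 6 summed to 178 to 201 CPM in GFPpos and 217 to 416 CPM in GFPneg libraries, and over the list of 7 there were 4 negative fold changes (median log2 -0.50). In GFPneg replicate 1, where Nr2f2 was highest, the lymphatic markers were divided. Mmrn1, with 61 counts of 3.28 CPM each, Flt4, at 108 CPM, and Prox1, at 42.6 CPM from 13 counts, were highest there. In that library Lyve1 had 0 counts, Pdpn 1 count, and Reln 62.3 CPM, below the other GFPneg libraries at 110 and 101 CPM. Pericyte and vascular smooth muscle markers, of cells known to express Vcam1, summed to 1899 to 3540 CPM in GFPpos and 3348 to 4639 CPM in GFPneg libraries, with a median log2 fold change of 1.65 over 9 tested genes. Fold changes of the sum and of the median thus differed in sign. Myh11, also a basal gene, was the most abundant of the list. It had 2072, 1587 and 2656 CPM in GFPpos replicates 1 to 3, against 3289, 3807 and 4393 CPM in GFPneg replicates 1 to 3. Of the 9 tested genes 7 had positive fold changes and 2 negative. At an unadjusted p below 0.05 edgeR had 5 higher and 1 lower (Myh11), with 0 called. After Myh11, Notch3 and Mcam were highest in GFPpos cells. In GFPpos replicates 1 to 3 Notch3 had 155, 101 and 279 CPM and Mcam 193, 120 and 190 CPM. In GFPneg replicates 1 to 3 Notch3 had 42.6, 21.7 and 61.5 CPM and Mcam 16.4, 89.2 and 86.8 CPM. GFPneg replicate 1 held 3 genes of the list, Mcam at 5 counts. The part of these cell types in the differences of the 9 genes was not tested.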

How the data were processed

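The authors deposited 1 file of raw counts per gene symbol for each of 6 paired-end libraries of total RNA. The tools named are HTSeq, TopHat2, cutadapt and FastQC, with the mm10 build, per the submitters' processing notes, with versions and strand setting not given in the sources used here. The 5 HTSeq summary rows name no gene and entered no total. Reads without a feature made up 66.4% in GFPneg replicate 1.

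From these counts, CPM with TMM factors, log2 fold changes (GFPpos over GFPneg) and Benjamini-Hochberg adjusted p-values were computed in R 4.3.3 with edgeR 4.0.16 (filterByExpr, quasi-likelihood test, group only, threshold 0.05, adjusted over all genes tested). DESeq2 1.42.0 was an alternative. The pipeline was tested on simulated data. Intervals are 95% exact and cover counting error only. Replicate numbers pair the libraries because both fractions came from the same pool, per the series' design text. Deviations of same-numbered libraries from their group means correlated at -0.0361, 0.122 and -0.00126. Other settings were library size or RLE scaling, no filter, exclusion of 5 noncoding features and exclusion of each library.

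The 9 genes and 16 lists, the 9 genes' own list among them, were chosen with earlier results of these data known. Named genes were the 9, up to 4 tested genes with the smallest p per list, and the 2 nearest profiles of each among tested genes averaging at least 5 CPM, predicted names left out. The denominators and within-library ratios, and all other genes named, were chosen after values were seen. Genes sharing exons with antisense or overlapping genes are uncertain, as the strand setting is unknown.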

Additional observations from a re-analysis of the deposited data

How the results depend on the processing

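Counts of genes called higher and lower depended on the fit. edgeR called 8 higher and 1 lower with the 6 libraries. With the replicate block, which uses the pairing by pool, it called 43 higher and 18 lower, and 3 of the 9 venule genes. DESeq2 called 52 and 104, with 1 of the 9, and with the block 77 and 90, with 2 of the 9. Without a filter on low counts the numbers were 65 and 236, with 3 of the 9, and with library size only 5 and 1, with 0 of the 9. With the block on pairs 2 and 3 alone they were 386 and 216, with 8 of the 9. Leaving out each library gave 2 to 63 higher and 1 to 29 lower, and 0 to 5 of the 9. The 63 higher, the 29 lower and the 5 of the 9 came without GFPneg replicate 1, and the 2 higher genes without GFPpos replicate 3. Genes called among the other lists numbered 3, against 13 with the block, 8 with DESeq2, 10 with DESeq2 and the block, 22 without a filter, 50 with the block on pairs 2 and 3, and 1 to 17 over the leave-outs. Non-overlapping venule genes numbered 3 with TMM and 5 with library size only.

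The log2 fold change of Icam1 turned from -0.09 to 0.32 with library size only and 0.21 with the block on pairs 2 and 3, with a leave-out range of -0.34 to 0.20 in which it was positive without GFPpos replicate 2 (0.07) or GFPneg replicate 1. Nr2f2 turned from -0.94 to 0.50 with the block, 0.51 with DESeq2 and the block, 0.044 with library size only and 2.04 with the block on pairs 2 and 3, with a leave-out range of -1.59 to 1.78. Vwf turned from -0.59 to 0.23, 0.21, 0.26 and 1.86 under the same 4 settings, with a leave-out range of -1.15 to 1.22. Both upper ends came without GFPneg replicate 1, and the cause was not tested. The other 6 genes kept a positive value under every setting run. Library size only moved the median of all genes by 0.16 on the log2 scale, the block by 0.17 and leaving out GFPneg replicate 1 by -0.11. Depth limits GFPneg replicate 1, where the 9 genes rest on 4 to 269 counts.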
